A study of Mus musculus with 8 samples.

Results

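The genes described here are 10 that mark or maintain the stem cells of the hair follicle: Cd34, Lgr5, Lgr6, Lrig1, Sox9, Lhx2, Nfatc1, Tbx1, Fgf18 and Foxc1. They were chosen by name. Each probe set that the platform annotation assigns to 1 of them alone was taken separately, which gave 19 probe sets for the 10 genes, of 45037 probe sets and 17097 genes measured in all. Nfatc1 had 5 probe sets, Sox9 had 3, Lgr5, Lrig1 and Foxc1 had 2 each, and the other 5 genes had 1 each. Probe sets of the same gene share their transcript and are not independent readings. No filter on dim values was applied, so all 19 entered the test.

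The RNA came from interfollicular epidermis (IFE), the epithelium between the hair follicles, of 15-week-old mice. DMBA, a carcinogen that mutates keratinocytes, and TPA, a phorbol ester that drives their proliferation, had been put on shaved back skin weekly for 6 weeks from 8 weeks of age, each as 200 µl in acetone (DMBA at 0.25 mg/ml, TPA at 0.02 mg/ml), and the skin is labelled pre-neoplastic. Both groups received this treatment: 4 arrays are labelled G9a cKO, a conditional knockout of the histone methyltransferase G9a (gene Ehmt2), and 4 are labelled G9a WT. The sources used here do not name the promoter that drives the deletion, the strain or the way IFE cells were parted from the follicle. They do not say either that replicates are different mice, so a p-value reflects the variation among these 8 arrays, which may be technical.

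The hair follicle renews itself in cycles from stem cells that sit in the bulge, a region of the outer root sheath below the sebaceous gland. The bulge cells are mostly quiescent, while cells of the hair germ beneath them respond first when growth starts, and other stem cells in the isthmus and junctional zone above them supply the upper follicle and the gland. Cd34, Lhx2, Sox9, Nfatc1, Tbx1 and Foxc1 are known from the bulge, Lgr5 from the lower bulge and hair germ, Lgr6 from the isthmus and Lrig1 from the junctional zone. After wounding, and in models of skin carcinogenesis, cells of follicle origin can enter the interfollicular epidermis, and several of these genes are also transcribed in cells outside the follicle.

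Promoter windows of 300 bases, from 250 before to 50 after a RefSeq transcript start (GRCm38.p6), were matched for 7 of the 10 genes, with 9 windows in all. Lgr5, Sox9 and Nfatc1 were not matched, in a search that did not cover every chromosome. The 4 printed here belong to the dimmest of the genes on these arrays (Cd34), to a pair of genes that were lowest on the same 2 arrays (Lgr6 and Lrig1), and to the gene with the smallest p-value of the comparison between genotypes (Lhx2, at the first of its 2 listed starts). Each is read 5′ to 3′ on the strand of the gene, and capitals mark the CG dinucleotides.
Cd34, chr1:194938571-194938870, plus strand: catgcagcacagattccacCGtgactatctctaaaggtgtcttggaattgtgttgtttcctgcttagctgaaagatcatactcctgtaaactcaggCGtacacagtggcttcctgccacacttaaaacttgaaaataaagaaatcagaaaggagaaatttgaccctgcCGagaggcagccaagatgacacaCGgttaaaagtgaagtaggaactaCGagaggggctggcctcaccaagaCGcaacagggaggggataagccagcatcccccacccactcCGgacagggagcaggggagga
Lgr6, chr1:135105227-135105526, minus strand: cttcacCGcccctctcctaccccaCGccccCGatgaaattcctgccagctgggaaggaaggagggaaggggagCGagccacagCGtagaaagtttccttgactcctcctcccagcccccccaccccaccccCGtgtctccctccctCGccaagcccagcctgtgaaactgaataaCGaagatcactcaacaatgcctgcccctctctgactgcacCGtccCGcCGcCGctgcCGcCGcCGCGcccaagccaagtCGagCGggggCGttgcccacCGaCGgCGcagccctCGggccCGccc
Lrig1, chr6:94700096-94700395, minus strand: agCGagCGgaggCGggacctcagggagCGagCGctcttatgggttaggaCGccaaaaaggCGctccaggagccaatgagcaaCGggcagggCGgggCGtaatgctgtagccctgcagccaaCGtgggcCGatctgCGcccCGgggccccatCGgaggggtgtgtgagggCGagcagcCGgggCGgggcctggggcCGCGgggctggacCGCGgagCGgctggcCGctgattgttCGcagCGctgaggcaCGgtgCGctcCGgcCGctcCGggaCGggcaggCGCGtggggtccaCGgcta
Lhx2, chr2:38339031-38339330, plus strand: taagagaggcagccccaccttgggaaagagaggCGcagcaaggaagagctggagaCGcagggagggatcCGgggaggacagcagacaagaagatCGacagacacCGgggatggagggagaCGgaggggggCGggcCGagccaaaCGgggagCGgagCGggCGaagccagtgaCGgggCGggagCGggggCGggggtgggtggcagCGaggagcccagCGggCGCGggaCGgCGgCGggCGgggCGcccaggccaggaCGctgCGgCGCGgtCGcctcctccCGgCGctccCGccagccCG
The Cd34 window held 7 CG dinucleotides, which is also the median of all 32851 windows of this length. The Lgr6 window held 24, more than 80.0% of all windows, the Lhx2 window 34, more than 92.3%, and the Lrig1 window 35, more than 93.0%. Among the windows not printed, that of Fgf18 held 47, that of Foxc1 32, those of Tbx1 26 and 16 and the second of Lhx2 29. The letters GGGCGG, searched on both strands, were found in 6 of the 9 windows and in 35.7% of all windows. CCAAT, searched in the same way, was in 2 of the 9 and in 37.4% of all, and TATAAA in none of the 9 and in 13.6% of all. These are matches of letters only.

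The arrays were alike as a whole, with r between 0.993 and 0.998 within groups and between 0.992 and 0.996 between groups across all probe sets. No array was a copy of another. On the first principal component, which held 36.9% of the variance, WT 4 stood at 23.5, beyond cKO 3 and cKO 4 (18.0 and 19.2). The other WT arrays stood far from it (-20.6 to -11.4), with cKO 2 near them at -10.7. Between these ends lay cKO 1, at -0.54, so this component did not part the genotypes. On the second component (23.0%) all cKO arrays were positive (7.35 to 19.96) and all WT arrays negative (-21.2 to -2.58), with cKO 2 and WT 4 at the ends. For some genes below, the difference without these 2 arrays is added as a value. Ehmt2 fell by 2.88 (log2, SE 0.19, limma adjusted p = 0.000244) at probe set 1460692_PM_at and stood at 0.01 (adjusted p = 0.996) at its other probe set, 1426888_PM_at; which of them lies in the deleted part is not given. The markers of interfollicular epidermis were bright: Krt5, Krt14, Krt1 and Krt10, the keratins of the basal and suprabasal layers, each had a probe set with a mean above that of at least 99.7% of all probe sets.

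None of the 19 probe sets passed the test between genotypes (limma, 0 at a Benjamini-Hochberg adjusted p under 0.05, where 0.466% of all probe sets passed, 0.393% higher and 0.0733% lower in cKO). The lowest adjusted p among them was 0.520, at Lhx2, and 1 of the 19, again Lhx2, had an unadjusted limma p under 0.05, against 7.98% of all probe sets. In none of the 19 did the 4 cKO arrays lie entirely above or below the 4 WT arrays, a separation seen in 4.89% of all probe sets (3.17% with cKO higher and 1.72% with cKO lower). The differences ran from -0.22 to 0.25 on the log2 scale, with a median of -0.05 beside 0.01 for all probe sets. Of the 10 genes, 7 were lower in cKO at every probe set and 3 (Lgr5, Lhx2 and Fgf18) were higher at every probe set, but none of these differences passed the test. The lean to lower values shrank when cKO 4 or WT 1 was left out. Without cKO 4 the median was 0.0097 with 9 of the 19 lower, and without WT 1 it was -0.0042 with 10 lower. Without any other single array 12 to 15 were lower, with medians of -0.138 to -0.062. The lowest array at 8 of the 19 was cKO 4 and the highest at 9 was WT 1. Leaving either out shrinks the lean at those probe sets by construction. The 95% intervals of the 19 differences all lay inside a 2-fold change in either direction, from a lowest bound of -0.65 at Lgr6 to a highest bound of 0.52 at Lgr5. Called probe sets across the whole table had a median size of 0.67, and the smallest called difference was 0.23. In bulk RNA of this kind, fewer cells of a type and less RNA per cell cannot be told apart.

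**Figure D1:**
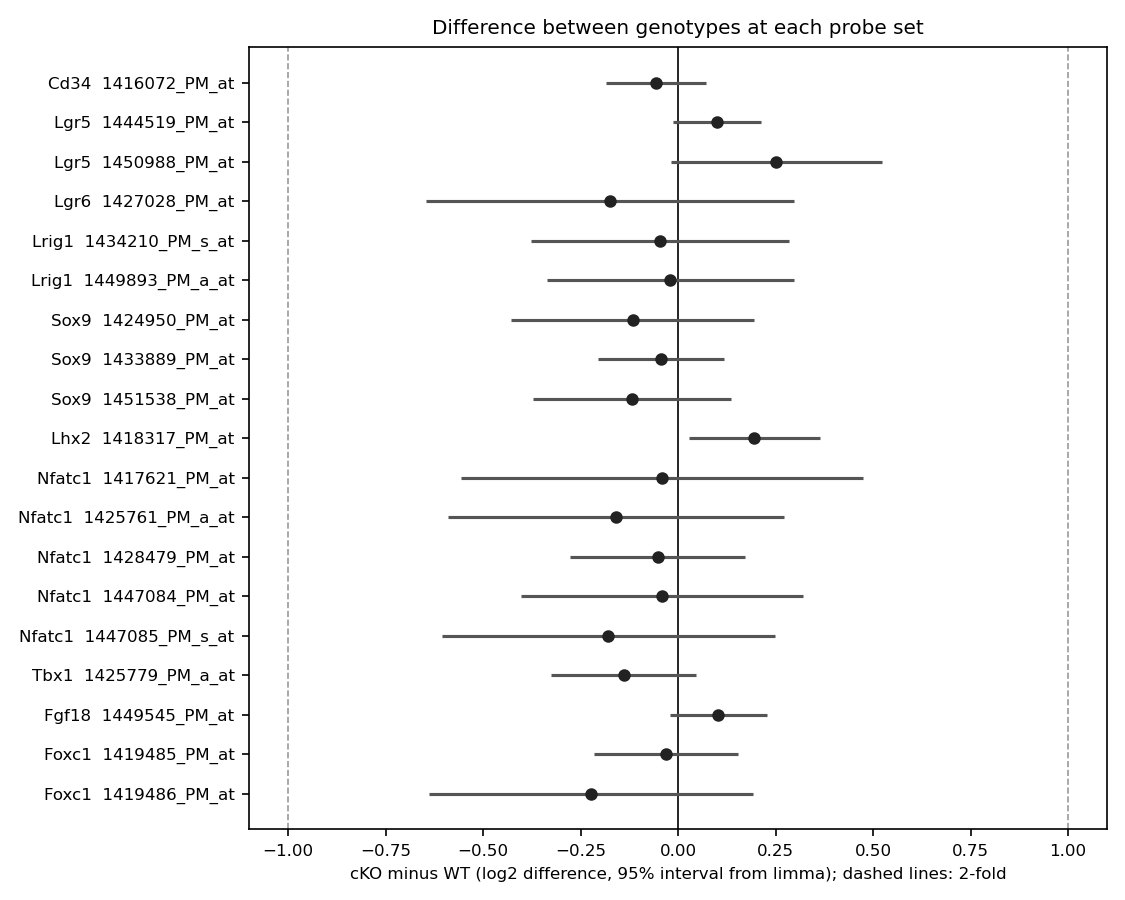
Difference in log2 expression, cKO minus WT, at each of the 19 probe sets (points), with its 95% interval from limma (lines) and dashed lines at a 2-fold change. The interval of Lhx2 alone does not reach 0, and none passed after adjustment over all 45037 probe sets.

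Among the surface proteins, Cd34, a sialomucin used to sort mouse bulge cells, was at the dim end of the arrays. Its probe set read 3.68, 3.71, 3.72 and 3.66 (log2) in cKO 1 to 4 and 3.74, 3.88, 3.76 and 3.62 in WT 1 to 4. The mean lay above that of 4.71% of all probe sets, and the table holds no detection call that would tell such a level from background. The difference was -0.06 (SE 0.06, 95% interval -0.18 to 0.07, limma adjusted p = 0.928, exact permutation p = 0.4), and WT 4, the lowest array, is what made the groups overlap. The difference was -0.11 without both cKO 2 and WT 4. Endothelial cells also carry Cd34. Of 13 endothelial markers, all measured, 2 had a probe set above the median level of the arrays, their mean level was 4.88 to 4.95 in the cKO and 4.87 to 4.95 in the WT arrays, and none passed the test.

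Lgr5, a receptor for R-spondins that amplifies Wnt signalling, was dim at both of its probe sets and read higher in 3 of the 4 cKO arrays. Probe set 1450988_PM_at gave 4.82, 4.43, 4.87 and 5.01 in cKO 1 to 4 and 4.58, 4.38, 4.45 and 4.70 in WT 1 to 4. The other, 1444519_PM_at, gave 4.40, 4.34, 4.50 and 4.51 in cKO and 4.35, 4.30, 4.37 and 4.34 in WT. At both, cKO 1, cKO 3 and cKO 4 lay above all WT arrays and cKO 2 lay among them. The differences were 0.25 (SE 0.12, 95% interval -0.02 to 0.52, limma adjusted p = 0.666, exact permutation p = 0.143) and 0.10 (SE 0.05, adjusted p = 0.701, exact p = 0.114). The means stood above those of 29.1% and 22.0% of all probe sets. With cKO 2 and WT 4 both left out, the differences were 0.42 and 0.13. These are values without a test, because the arrays were chosen after seeing the data, and at 1450988_PM_at cKO 2 is the lowest cKO array and WT 4 the highest WT array. On the remaining 6 arrays 1 of the 19 probe sets (1450988_PM_at) lay past the threshold and 3 had groups that did not overlap (both Lgr5 sets and Cd34), while 1.46% and 19.6% of all probe sets did.

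Lgr6, the paralogue of Lgr5 that marks the isthmus and is also found in interfollicular epidermis, was bright and fell into 2 sets of arrays that did not follow genotype. It read 8.29, 7.65, 8.29 and 7.52 in cKO 1 to 4 and 8.25, 8.24, 7.66 and 8.28 in WT 1 to 4. Thus cKO 2, cKO 4 and WT 3 lay between 7.52 and 7.66, the other 5 arrays between 8.24 and 8.29, and the gap of 0.58 between them took up 74.5% of the whole range. The genotype means differed by -0.17 (SE 0.21, 95% interval -0.65 to 0.30, limma adjusted p = 0.950, exact permutation p = 0.629). This value moved from -0.32 without WT 3 to -0.034 without cKO 4, and was -0.021 without both cKO 2 and WT 4. The gene has 1 probe set here, so the split could not be set against a second reading.

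Lrig1, a membrane protein that restrains ErbB receptors, was measured at high level by 2 probe sets that gave nearly the same values. Probe set 1434210_PM_s_at read 9.49, 8.82, 9.12 and 8.84 in cKO 1 to 4 and 9.24, 8.96, 8.99 and 9.26 in WT 1 to 4. Once each was centred on its own mean, the 2 probe sets differed by at most 0.06 on any array, while the arrays differed by up to 0.67. The highest array, cKO 1, and the lowest, cKO 2, were both knockouts. The genotypes differed by -0.05 (SE 0.15, 95% interval -0.38 to 0.28, limma adjusted p = 0.989, exact permutation p = 0.8) at this probe set and by -0.02 (adjusted p = 0.996) at 1449893_PM_a_at. Without both cKO 2 and WT 4 these differences were 0.08 and 0.12. They also turned positive without cKO 4 alone (0.030 and 0.041), so their sign depends on which arrays are kept.

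**Figure D2:**
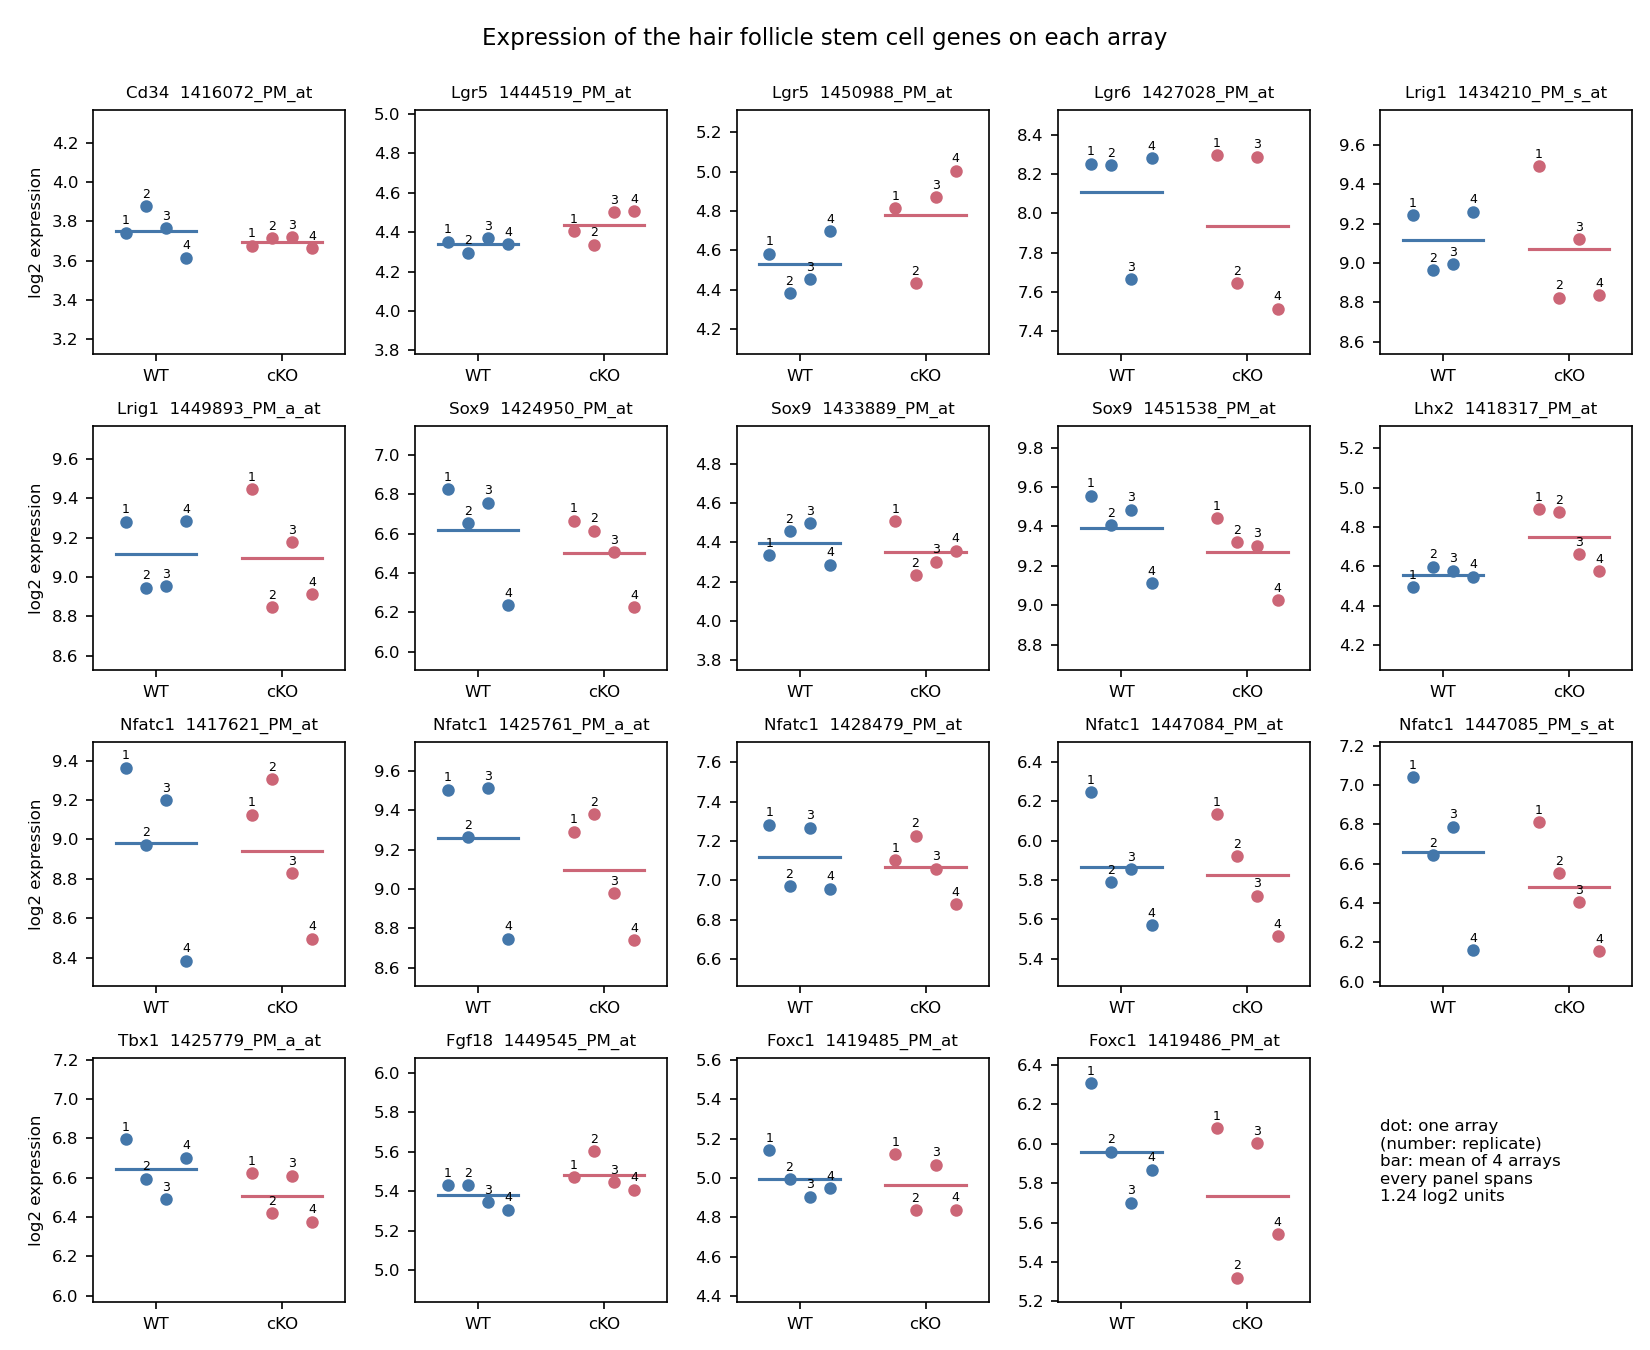
Log2 expression on each array (dots, numbered by replicate), with the mean of the 4 arrays of a genotype (bars), for the 19 probe sets; all panels span the same number of log2 units. WT and cKO overlap in each panel, and cKO 4 and WT 4 are the 2 lowest dots in all 5 panels of Nfatc1.

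Of the transcription factors, Sox9, a high mobility group factor that specifies bulge cells, was bright at 1451538_PM_at, where cKO 1 to 4 read 9.44, 9.32, 9.30 and 9.02 and WT 1 to 4 read 9.56, 9.41, 9.48 and 9.11. The lowest array of each genotype was replicate 4, and both lay apart from the other 6 arrays, which ran from 9.30 to 9.56. The difference was -0.12 (SE 0.11, 95% interval -0.37 to 0.14, limma adjusted p = 0.919, exact permutation p = 0.4). Probe set 1424950_PM_at, at a middle level, had the same 2 low arrays (cKO 4 at 6.23 and WT 4 at 6.24, against 6.51 to 6.83) and also stood at -0.12 (adjusted p = 0.949). The third probe set, 1433889_PM_at, was dim (4.23 to 4.51) and stood at -0.04 (adjusted p = 0.972). With cKO 2 and WT 4 left out, the brighter sets stood at -0.23 and -0.28. WT 4 was the lowest WT array at both, so leaving it out widens the difference by construction.

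Lhx2, a LIM homeobox factor that keeps bulge cells from being activated, had the smallest p of the 19 in the fit of all 8 arrays, although Lgr5 1450988_PM_at had the larger difference and the smaller p with a replicate block, with array weights and without cKO 2. Its probe set read 4.89, 4.88, 4.66 and 4.58 in cKO 1 to 4 and 4.50, 4.60, 4.58 and 4.55 in WT 1 to 4. The first 3 cKO arrays lay above every WT array, and cKO 4 lay below WT 2 and WT 3. The difference was 0.20 (SE 0.07, 95% interval 0.03 to 0.36), which is 1.15-fold, with an unadjusted limma p of 0.0272, an adjusted p of 0.520 and an exact permutation p of 0.0857. For comparison, the largest unadjusted p among called probe sets was 0.000232, and 4 against 4 arrays cannot give an exact p below 0.0286. The mean stood above that of 29.0% of all probe sets, so this is a small difference at a dim level.

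Nfatc1, a calcineurin-dependent factor that holds bulge cells in quiescence, had the largest within-group SD of the 19 probe sets, 0.39 at 1417621_PM_at. Probe set 1425761_PM_a_at read 9.29, 9.38, 8.98 and 8.74 in cKO 1 to 4 and 9.51, 9.26, 9.51 and 8.75 in WT 1 to 4. Probe set 1417621_PM_at read 9.13, 9.31, 8.83 and 8.50 in cKO and 9.36, 8.97, 9.20 and 8.38 in WT. At both, cKO 4 and WT 4 were nearly equal and lower than the other 6 arrays. They were the 2 lowest arrays at 5 of the 5 probe sets, and WT 1 was the highest at 4 of them. The differences between genotypes were small beside this spread, from -0.18 (SE 0.19, 1447085_PM_s_at) to -0.04 (SE 0.16, 1447084_PM_at, and SE 0.23, 1417621_PM_at), with limma adjusted p of 0.937 to 0.996 over the 5. Without both cKO 2 and WT 4 they ran from -0.42 (1425761_PM_a_at) to -0.16. At 1425761_PM_a_at cKO 2 was the highest cKO array and WT 4 the lowest WT array, so leaving them out widens the difference by construction.

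Tbx1, a T-box factor of bulge self-renewal, read 6.62, 6.42, 6.61 and 6.38 in cKO 1 to 4 and 6.80, 6.59, 6.49 and 6.70 in WT 1 to 4. The difference of -0.14 (SE 0.08, 95% interval -0.33 to 0.05) gave a limma adjusted p of 0.780 and an exact permutation p of 0.2. Here the 3 lowest arrays were cKO 4, cKO 2 and WT 3, the same 3 as for Lgr6. Foxc1, a forkhead factor of bulge quiescence, read 6.08, 5.32, 6.00 and 5.54 in cKO 1 to 4 and 6.31, 5.96, 5.70 and 5.87 in WT 1 to 4 at 1419486_PM_at. Its range of 0.99 over the 8 arrays was the widest of the 19 probe sets, and again cKO 2, cKO 4 and WT 3 were the lowest. The genotypes differed by -0.22 (SE 0.18, 95% interval -0.64 to 0.19, limma adjusted p = 0.893, exact permutation p = 0.371) there and by -0.03 (adjusted p = 0.986) at the dimmer 1419485_PM_at, which ran from 4.83 to 5.14. The first of these was -0.12 without both cKO 2 and WT 4, and ran from -0.34 without cKO 1 to -0.085 without cKO 2.

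The ligand of the group, Fgf18, is a fibroblast growth factor that prolongs the resting phase of the follicle. It read 5.47, 5.60, 5.45 and 5.41 in cKO 1 to 4 and 5.43, 5.43, 5.34 and 5.31 in WT 1 to 4. The first 3 cKO arrays lay above all WT arrays, with cKO 4 just below WT 1 and WT 2. The difference was 0.10 (SE 0.06, 95% interval -0.02 to 0.23, limma adjusted p = 0.729, exact permutation p = 0.114), and its mean stood above that of 45.1% of all probe sets. It was 0.039 without both cKO 2 and WT 4.

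The spread between arrays of the same genotype was thus the larger part of the variation at these genes. The share of the variation that lay between genotypes ran from 0.248% (Lrig1, 1449893_PM_a_at) to 49.2% (Lhx2), with a median of 7.71%. This share was not computed over all probe sets, so it is not read as particular to these genes. At 10 of the 19 probe sets the within-group SD was higher than at 90% of all probe sets, without matching for level: these were 4 of Nfatc1, both of Lrig1, and 1 each of Lgr5, Lgr6, Sox9 and Foxc1. The bulge factors Nfatc1 and Sox9 shared an order of arrays, in which WT 4 was among the lowest 3 at 8 of their 8 probe sets, cKO 4 at 7 and cKO 3 at 7. These are also the 3 arrays with the highest values on the first principal component given above. Lrig1, Lgr6 and Foxc1 shared another order, with cKO 2 and cKO 4 as the 2 lowest arrays and cKO 1 among the 2 highest at 5 of their 5 probe sets. Both groupings were made after the values were seen and get no test, and the part of array quality or of cell composition in them was not tested.

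**Figure D3:**
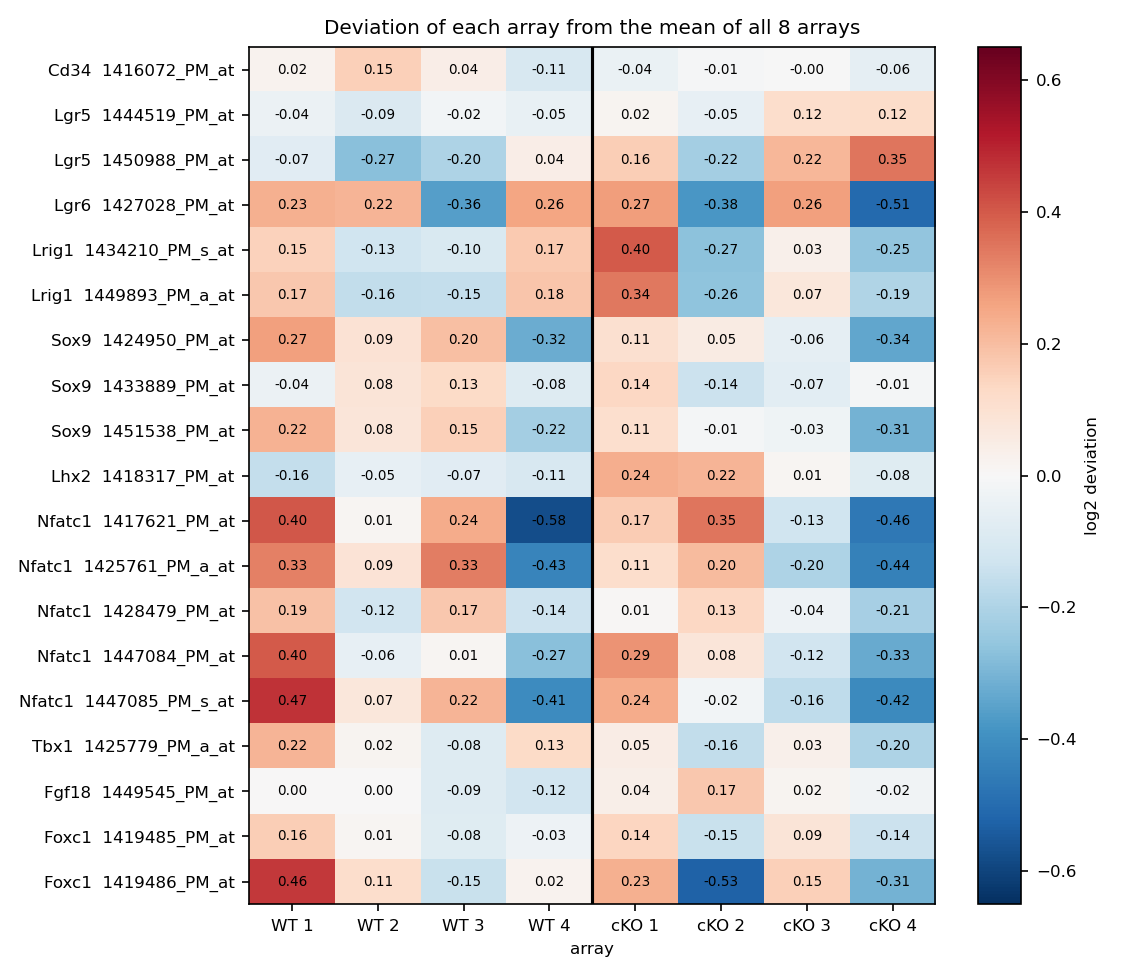
Deviation of each array (columns) from the mean of all 8 arrays, in log2 units, for the 19 probe sets (rows); red is higher and blue lower, and the black line parts WT from cKO. At the 5 sets of Nfatc1 the deepest blue cells are those of WT 4 and cKO 4, and at Lgr6, Lrig1 and Foxc1 those of cKO 2 and cKO 4, so that the colours change within a genotype.

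Among 32 further genes of the bulge and hair germ, all measured, with 73 probe sets, 1 gene rose, none fell and 31 did not pass (limma, adjusted p under 0.05). That was 1 of the 73 probe sets, beside 0.466% of all probe sets. The gene was Dkk3, a secreted member of the Dickkopf family expressed in bulge cells. At 1417312_PM_at it read 7.55, 7.62, 7.55 and 7.36 in cKO 1 to 4 and 7.00, 7.15, 7.08 and 6.98 in WT 1 to 4, and the groups did not overlap. The difference was 0.47 (SE 0.07, limma adjusted p = 0.0171, exact permutation p = 0.0286). Its other probe set, 1448669_PM_at, also had groups that did not overlap, at 0.40 (SE 0.08, limma adjusted p = 0.112); it passed when cKO 4 was left out (adjusted p = 0.0136) and with array weights (0.0217). The call of Dkk3 was lost without any of cKO 1, cKO 2, cKO 3, WT 1 or WT 3 (highest limma adjusted p = 0.0875). The next genes in size were Ccn2, a matricellular growth factor, at 0.45 (SE 0.19, adjusted p = 0.580), Itgb6, an integrin subunit, at -0.36 (SE 0.23, adjusted p = 0.824), and Tnc, the matrix protein tenascin C, at -0.25 (SE 0.23, adjusted p = 0.916), with 0.08 at its dim second probe set. Without both cKO 2 and WT 4, Tnc stood at -0.60, but these were its highest cKO and lowest WT arrays, so it widens by construction. The list's median difference was 0.01. The groups did not overlap at 4 of its 73 probe sets, those of Dkk3 included, all higher in cKO. Of all probe sets, 3.17% were separated in that direction. Krt15, the bulge keratin that is also made by basal IFE cells, was bright (mean ± SD of the log2 values 11.4 ± 0.13 for cKO, 11.3 ± 0.20 for WT, n = 4) and stood at 0.11 (SE 0.10, adjusted p = 0.918).

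Of 13 genes of the upper follicle, 10 were measured, and 1 of these fell. That was 1 of 13 probe sets, beside 0.466% of all probe sets. Klk10, a kallikrein-related protease, read 7.38, 7.41, 7.41 and 7.44 in cKO 1 to 4 and 7.60, 7.80, 7.70 and 7.71 in WT 1 to 4, so that it fell by 0.29 (SE 0.05, limma adjusted p = 0.0420, exact permutation p = 0.0286). This call was narrow and was lost without any array other than WT 1 (highest limma adjusted p = 0.174). Krt79, a keratin of the infundibulum and gland duct, stood at -0.23 (SE 0.14, adjusted p = 0.787). The median of the list was -0.06.

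The partners of the 10 genes did not pass either. Of 10 genes around LGR receptors and R-spondins none was called; the furthest was Rspo3, which encodes an R-spondin ligand, at -0.22 (SE 0.15, limma adjusted p = 0.836) and -0.15 (SE 0.05, adjusted p = 0.440). Of the relatives of Lrig1, Lrig2 and Lrig3, and of 6 genes of SoxE and LIM factors and their cofactors, none was called. Of 11 genes listed around NFAT and calcineurin, Cdk4 and Prlr among them, all but Prlr were measured and none was called. None was called either among 22 measured of 23 signals of the follicle cycle. In that list Inhba, the activin subunit gene, stood at -0.32 (SE 0.16, adjusted p = 0.712) and, at its second probe set, at 0.07. Bmp2 stood at -0.21 (SE 0.16, adjusted p = 0.881), and at -0.45 without both cKO 2 and WT 4. These were its highest cKO and lowest WT arrays, so leaving them out widens the difference by construction. Bmp7, a bone morphogenetic protein, was lower in every cKO array than in every WT array at 1418910_PM_at, at -0.23 (SE 0.06, adjusted p = 0.248), and stood at -0.13 and -0.07 at its other probe sets. Of the 39 probe sets of follicle cycle signals, 1 was separated lower in this way and 1 higher. Of all probe sets, 1.72% were separated lower and 3.17% higher. Medians of these 5 lists lay between -0.04 and 0.07. Each count is read against the 0.466% of all probe sets that passed.

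Markers of other cells that the preparation could hold did not pass the same test. The groups did not overlap at 2 of 10 melanocyte probe sets, Mlana among them, and at 2 of 19 endothelial ones, all higher in cKO. Of 15 blood and mast cell probe sets, 1 was separated higher and 1 lower. No probe set of the other lists in this paragraph was separated, and 4.89% of all probe sets were. None of 10 measured sebaceous, 15 hair shaft and inner root sheath, 13 endothelial, 13 fibroblast and dermal papilla, 14 blood and mast cell or 6 melanocyte genes passed, and neither did any of 10 measured markers of interfollicular epidermis. Of the hair shaft and inner root sheath markers, 6 had a probe set above the median level of the arrays, and the mean of the list was 5.51 to 5.54 in the cKO and 5.47 to 5.53 in the WT arrays. The mean of the sebaceous list was 6.87 to 7.12 in cKO and 6.93 to 7.11 in WT. The largest differences in these lists were at Cd74, of the antigen presentation machinery, at 0.49 (SE 0.32, limma adjusted p = 0.814), at Fbln1, a matrix protein, at -0.45 (SE 0.13, adjusted p = 0.325), at the melanocyte gene Mlana, 0.25 (SE 0.08, adjusted p = 0.399), and at the lipid desaturase gene Scd1, -0.25 (SE 0.13, adjusted p = 0.717), with -0.06 at its other probe set. The other 2 probe sets of Fbln1 stood at -0.35 and -0.01, and 1422540_PM_at, the one at -0.45, passed with array weights, at -0.58 (limma adjusted p = 0.0469). Cd74 depended on which arrays were kept: it stood at 0.20 without WT 4, at 0.31 without cKO 2 and at 0.70 without cKO 4. Without both cKO 2 and WT 4 it stood at 0.023. Its highest array was cKO 2 (9.16) and its lowest WT 4 (7.26), so leaving them out narrows the difference by construction.

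**Figure D4:**
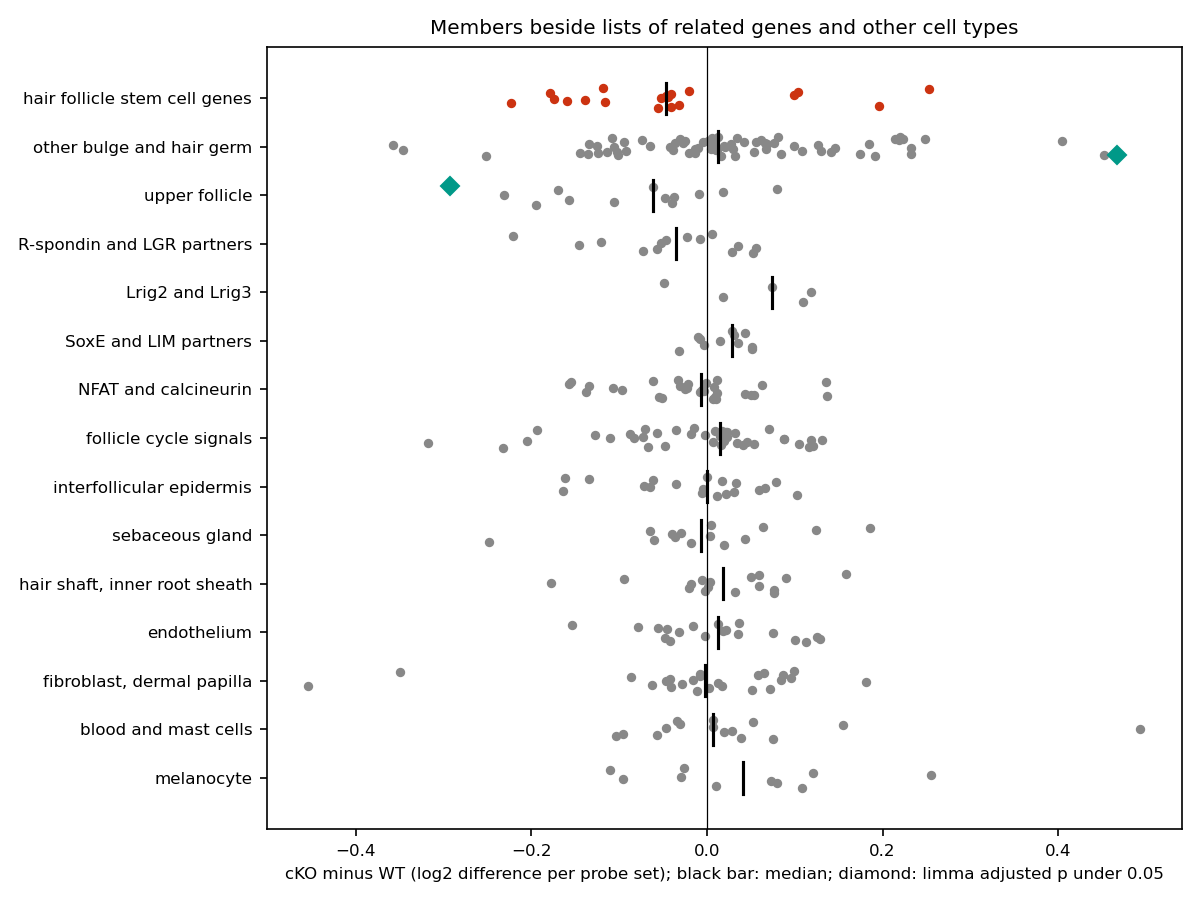
Log2 difference, cKO minus WT, of each probe set (points) of the 10 genes, at the top in red, and of 14 lists of related genes and other cell types, with the median of each list (black bars). The diamonds are the 2 probe sets that passed, Dkk3 at 0.47 and Klk10 at -0.29; the red points lie between -0.22 and 0.25.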

How the data were processed

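The authors deposited 1 table of log2 values per probe set, with RMA named as the tool by the submitters' processing notes. No version or setting of RMA is stated in the sources used here. As usually run, RMA removes background, equalises the arrays and combines the probes of a set, and a shift of all genes together cannot be seen after it. The base of the logarithm was inferred from the range, 3.06 to 13.0. Scanner files were not used here. RNA was amplified before labelling, per the labels' protocols.

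Of 45141 rows, 104 control probe sets were left out and 45037 were tested. The platform annotation gave 28898 of them 1 gene, 551 several and 15588 none; 28689 took their current symbol from a table of GRCm38.p6. Groups came from the labels. cKO and WT were compared with limma 3.58.1 (lmFit, eBayes; R 4.3.3). Its p-values were two-sided and adjusted by Benjamini-Hochberg over all probe sets. Exact permutation tests were two-sided over 70 arrangements. Arrays have no read depth, so their number, 4 a group, limits the precision. The fit was tested on simulated data. Plots used matplotlib 3.10.9.

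The genes and lists were chosen with earlier results of these data known. The text names all probe sets of the 10 genes, Ehmt2, from each list genes that passed and otherwise up to 4 by size of difference, here only those of 0.2 or more, and with them their other probe sets; Krt15 and the keratins of the epidermis were added as markers. Brightness is given as the share of probe sets with a lower mean, which depends on probe affinity too. The comparison was repeated with a replicate block, after cyclic loess or median centring, with array weights, with a trended prior, with only probe sets above the median level, with 1 probe set a gene, and without each array in turn.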

Additional observations from a re-analysis of the deposited data

Results flagged for a closer look

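Lgr6 on WT 3 read 7.66 (log2), far below the other 3 WT arrays, of which the nearest, WT 2, read 8.24; this gap made up 0.942 of the range of the group. It was the 1 value that stood apart in this way in 38 groups of 4 arrays (19 probe sets, 2 genotypes), where chance would mark about 5% of groups. The cKO arrays cKO 2 and cKO 4 read 7.65 and 7.52.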

How the results depend on the processing

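None of the 19 probe sets passed with a replicate block, cyclic loess, median centring, trended prior or array weights, or without any single array. None passed with the level filter or 1 probe set a gene, but these fits held only 12 and 10 of the 19. Cd34, Lgr5, Lhx2 and Fgf18 had no probe set left after the level filter. Without both cKO 2 and WT 4, a choice made after seeing the data, 1 lay past the threshold (Lgr5, 1450988_PM_at). This is no test, since those arrays were picked by their place on the first principal component. There WT 4 lay beyond cKO 3 and cKO 4, and cKO 2 lay near the other WT arrays, but that component did not part the genotypes. The count of called probe sets over the whole table was 210, and was 758 with array weights, 132 among probe sets above the median level, 657 without both cKO 2 and WT 4, and 104 to 356 when single arrays were left out. Member probe sets whose groups did not overlap numbered 0, but 1 after cyclic loess (Lhx2). They numbered 0 to 2 when single arrays were left out and 3 without both arrays. Without both arrays, 19.6% of all probe sets were separated in this way. That share was not computed after cyclic loess or when single arrays were left out, so those counts have no background. Smaller groups also part more easily by chance. Directions turned with array weights for Lgr6 (0.034), Lrig1 1449893_PM_a_at (0.028) and Foxc1 1419485_PM_at (1.8e-05), and without both arrays for the Lrig1 sets (0.083 and 0.12) and Fbln1 1439688_PM_at (0.00277); median centring turned Ehmt2 1426888_PM_at (-0.00436). When single arrays were left out, the difference ran from -0.19 to 0.035 and -0.14 to 0.063 at the Lrig1 sets, -0.083 to 0.016 at Foxc1 1419485_PM_at, -0.24 to 0.11, -0.11 to 0.0097 and -0.15 to 0.086 at Nfatc1 1417621_PM_at, 1428479_PM_at and 1447084_PM_at, -0.030 to 0.045 at Ehmt2 1426888_PM_at and -0.044 to 0.0086 at Fbln1 1439688_PM_at. The cause was not tested. The replicate numbers did not pair the arrays throughout (correlations of same-numbered deviations 0.13, 0.22, -0.62 and 0.37). Of the WT arrays, WT 1 correlated best with cKO 1, and WT 4 with cKO 4. Neither match was mutual, since WT 1 correlated more with cKO 2 (0.25) and WT 4 more with cKO 3 (0.46). The highest correlation was that of cKO 2 with WT 3 (0.545). The replicate block lowered the SE from 0.19 to 0.073 at Nfatc1 1447085_PM_s_at and from 0.16 to 0.064 at 1447084_PM_at. At Sox9 1424950_PM_at the SE fell from 0.14 to 0.062. The SE rose at Cd34, at the dimmer Lgr5 set and at the dimmest Sox9 set. Why it changed was not tested. With the replicate block 175 probe sets and 0 members were called, and Klk10 was not (limma adjusted p = 0.128); Klk10 was also lost with the trended prior (0.107) and above the median level (0.0561). The dim levels of Cd34, Lgr5 and Lhx2 limit what could be seen there.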

Other observations

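Itgb6 and Ccn2, of the further bulge genes, also moved when cKO 2 and WT 4 were both left out. Itgb6, an integrin subunit of activated epithelium, went from -0.36 and -0.35 over all 8 arrays to -0.75 and -0.68 at its 2 probe sets, and Ccn2 went from 0.45 to 0.74. At 1432281_PM_a_at of Itgb6, cKO 2 was the highest cKO array (8.31) and WT 4 the lowest WT array (7.501), so leaving them out parts the groups by construction, and no test is given. For Ccn2, cKO 2 was the lowest cKO array (5.87) and WT 4 the highest WT array (6.27), so its difference widens by construction too.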
